A study of Mus musculus with 9 samples.

Results

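The 4 libraries described here hold RNA of wound macrophages, taken from wild-type C57BL/6J mice 4 days after skin injury and isolated by flow sorting. They are 4 of the 9 libraries of the series, chosen by the time point in their labels, and the day 14 libraries were not used. All 18303 genes of the deposited table were described, by how many counts each holds and by how far the 4 libraries lie from each other. The cells were CD45+CD11b+F4/80+ by flow sorting after enzymatic digestion and mechanical disruption of wound tissue, were also stained for CD115, and carried no treatment. CD45 marks cells of blood origin, CD11b is an integrin of myeloid cells and F4/80 is a surface protein of mouse macrophages. Dead cells were excluded with the dye 7-AAD. No antibody against markers of neutrophils, dendritic cells or eosinophils is listed in the labels. The sex and age of the mice, the kind of wound, and how many animals went into each library are not given in the sources used here, so the spread among the 4 libraries may be biological or technical. The labels give the 4 libraries no replicate numbers, and they are called replicates 1 to 4 in the order of their sample numbers.

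In the first days after a skin injury, blood monocytes enter the tissue and become macrophages, which take up dead cells and debris, degrade them in lysosomes and recycle the iron and lipid they contain. The same cells secrete cytokines and chemokines such as interleukin-1 and Cxcl2 that call in further leukocytes, and later growth factors and matrix proteins that accompany repair. Wound macrophages are therefore a mixed population, in which inflammatory and resolving programmes overlap.

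Levels are given in CPM, the counts of a gene scaled to a library total of 1000000. CPM measures the share of the counts, so a long transcript reaches a higher value than a short one at the same number of molecules. Where genes are compared with each other, CPM per kb of exon length is given as well. Total counts were 26479011 and 27381276 in replicates 1 and 2 and 50162700 and 57809914 in replicates 3 and 4, so replicates 3 and 4 are the deep libraries and their low levels rest on more counts. A count of 0 allows a level of up to 0.113 CPM in replicate 1 and 0.0519 CPM in replicate 4 (3 counts of the total, counting error only). Between 15198 and 16228 genes held a count in a library. In all 4 libraries together, 972 genes held none, and 11491 genes (62.8% of those listed) reached at least 1 CPM in each library. No gene with at least 50 counts in 3 libraries was at 0 in the other one.

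The genes of the sort markers were high in all 4 libraries. Ptprc, which encodes CD45, was at 1103, 1135, 1092 and 1002 CPM in replicates 1 to 4. Itgam, which encodes CD11b, was at 1729, 1461, 1714 and 1604 CPM. Emr1 (now Adgre1), which encodes F4/80, was at 998, 1038, 1130 and 1003 CPM. Csf1r, which encodes the stained CD115, the receptor for the macrophage growth factor M-CSF, was at 1931, 1741, 2118 and 2228 CPM. None of these 4 genes differed by as much as 1.5-fold between any 2 libraries. All 13 macrophage and sort markers reached at least 100 CPM on average, and their summed level was 21072 ± 1129 CPM (mean ± SD, n = 4), with the lowest sum in replicate 2. The label of the cells was thus matched by its defining markers. Transcripts of the Y chromosome were present in all 4 libraries (Ddx3y from 196 to 285 CPM), while Xist, the RNA of the inactive X chromosome, had at most 0.104 CPM.

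A small number of genes held a large share of the counts. The 10 most abundant genes held from 7.61% to 8.12% of the counts of a library, the first 100 held from 23.4% to 24.5%, and between 624 and 699 genes held 50% of them. On average, 98 genes lay at or above 1000 CPM and together held 23.5% of all counts, while 2240 genes lay at or above 100 CPM. Of the 25 named genes with the highest mean level, 20 were among the first 25 in each of the 4 libraries. Of the first 100 genes of each library, 84 were shared by all 4.

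**Figure D1:**
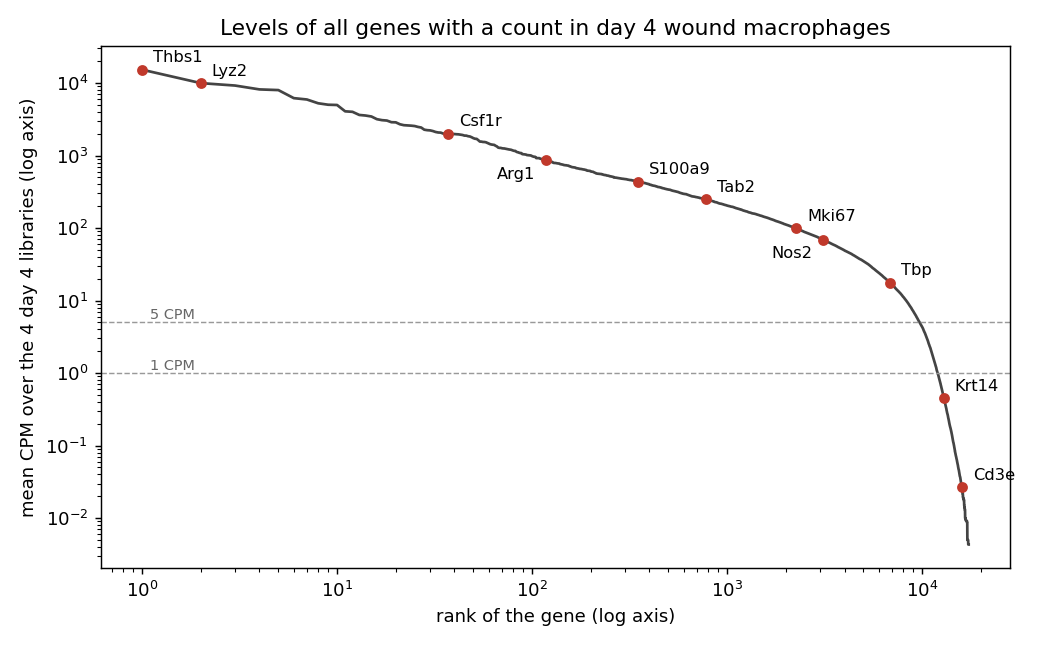
Mean CPM over the 4 day 4 libraries (vertical log axis) of every gene with a count, against the rank of the gene (horizontal log axis), with 11 genes marked and dashed lines at 1 and 5 CPM. The curve falls slowly from Thbs1 at 15271 CPM and steeply below 5 CPM, where the keratinocyte gene Krt14 and the T cell gene Cd3e lie.

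Thbs1 held more counts than any other gene in each library. It encodes thrombospondin 1, a large secreted glycoprotein that platelets and macrophages release and that binds matrix and activates TGF-beta. It lies at chr2:118111876-118127133 (GRCm38) and was at 19041, 15033, 12853 and 14156 CPM, a mean of 15271 ± 2668 CPM. Replicate 1 was the highest and replicate 3 the lowest, 1.48-fold apart. Next came Lyz2, the lysozyme gene of macrophages (chr10:117277331-117282321), at 9703, 9437, 10777 and 9951 CPM. The protease gene Ctsb was at 9229, 8478, 9708 and 9484 CPM. Both differed by less than 1.2-fold between the libraries, far less than Thbs1.

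The next places were held by further genes of lysosomes, of lipid and iron handling and of the matrix. Psap, the precursor of the saposins that help to break down sphingolipids, was at 8161 ± 506 CPM. Apoe, which carries cholesterol out of macrophages, was at 7987 ± 841 CPM, with the higher values in replicates 3 and 4. Ahnak, a very large scaffold protein, was at 6184 ± 729 CPM, and its rank of 6 rests on a long transcript, since per kb of exon it ranked at 130. Fth1 and Ftl1, the 2 chains of the iron store ferritin, were at 4976 ± 604 and 4070 ± 406 CPM. Fn1, the matrix protein fibronectin, was at 5017 ± 612 CPM, and Sepp1 (now Selenop), the secreted selenium carrier, at 5254 ± 547 CPM. The protease genes Ctsd and Ctss and Cd74, the invariant chain of MHC class II, had means between 3453 and 4004 CPM. Collagen genes were also among the first 25, and their values are given below with the fibroblast markers.

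**Figure D2:**
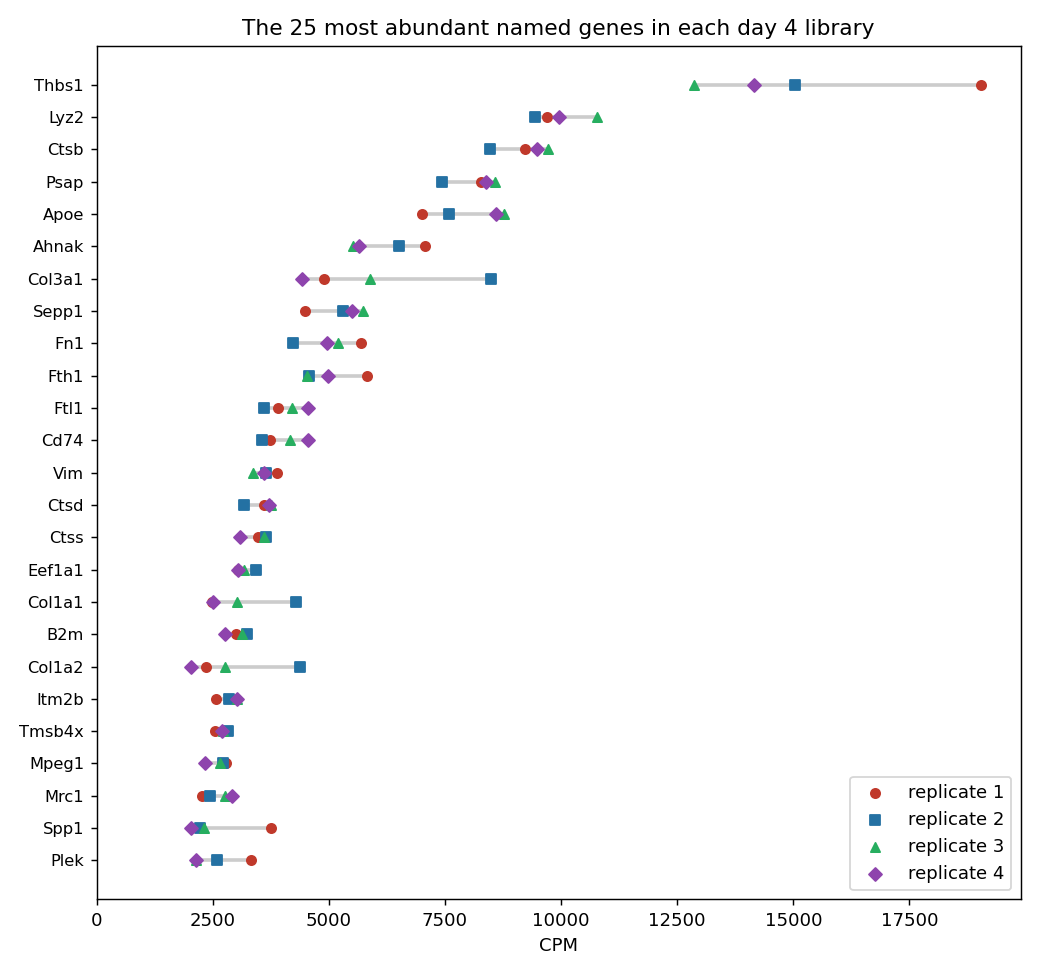
CPM (horizontal axis from 0) of the 25 named genes with the highest mean level, with 1 symbol per library and a grey line from the lowest to the highest. Most lines are short against the level, while those of Thbs1, Col3a1, Col1a1, Col1a2, Spp1 and Plek are long.

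Per kb of exon, the order changed and shorter transcripts moved up. Lyz2 came first, at 7574 ± 440.3 CPM per kb, followed by Apoe at 4346 ± 458, Ftl1 at 4204 ± 419 and B2m, the light chain of MHC class I, at 3530 ± 231 CPM per kb. Apoe and Ftl1 did not differ beyond their spread. Fth1, Psap, Cd74, Thbs1, Ctss and Sepp1 followed, from 3194 down to 2449 CPM per kb, and most neighbours in this order lay within 1 SD of each other. Thbs1 thus went from rank 1 by counts to rank 8 per kb, at 2611 ± 456 CPM per kb. Of the 25 genes with the highest CPM, 17 were also among the first 25 per kb. Exon lengths were found for 18059 of the 18303 genes.

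Of the 98 genes at or above 1000 CPM, 6 are lysosomal protease genes and 4 are on the list of other lysosomal genes. All 13 lysosomal protease genes on the list had counts, and their sum was 25456 ± 968 CPM, a CV of 3.80% among the libraries (CV, the SD as a percentage of the mean). Besides Ctsb, Ctsd and Ctss the 6 were Lgmn, the asparagine-cutting protease legumain, at 2236 ± 162 CPM, Ctsl and Ctsc. Ctsk, best known as the collagen-cutting protease of bone-resorbing cells, had one of the largest spreads of the list, at 571, 387, 339.6 and 448 CPM. Of 20 genes of lysosomal membrane proteins, hydrolases and activators, 17 reached at least 100 CPM. Npc2, which binds cholesterol inside the lysosome, was at 938, 950.4, 979 and 978 CPM and had the lowest CV of that list, 2.13%.

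Genes of lipid handling and of the uptake of dead cells were well counted. Abca1, the pump that exports cholesterol, was at 1882 ± 242 CPM and Plin2, the coat protein of lipid droplets, at 1241 ± 118 CPM. Of 16 scavenger and efferocytosis genes, 11 reached at least 100 CPM. Mrc1, the mannose receptor, was at 2277, 2433, 2765 and 2924 CPM. Lrp1, a large receptor for lipoproteins and dying cells, was at 2001 ± 221 CPM. Stab1, a scavenger receptor, was at 1136, 1026, 1522 and 1657 CPM, with replicates 3 and 4 above 1 and 2. Timd4, a receptor for phosphatidylserine of long-lived tissue macrophages, stayed at 2.41 ± 0.778 CPM. In iron and heme handling, Hmox1, the enzyme that opens the heme ring, was at 2176 ± 308 CPM, and Slc40a1, the iron exporter ferroportin, at 135 ± 22.2 CPM.

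Complement, antigen presentation and pathogen sensing were also present at high levels. C1qb and C1qa, subunits of the complement protein C1q, were at 1555 ± 252 and 1214 ± 225 CPM. Counts of the library that was highest or lowest are read against all 9708 genes with a mean of at least 5 CPM. Replicates 1 to 4 held the highest value of 13.5%, 31.9%, 21.2% and 33.4% of these genes and the lowest value of 41.7%, 27.2%, 13.2% and 17.9%. Replicate 2 held the lowest value of 9 of the 13 complement genes, against 27.2% of all genes (10 of 13 with TMM, a scaling that matches the bulk of the genes between libraries, against 35.7%). Among MHC class II genes, Cd74, H2-Aa, H2-Eb1 and H2-Ab1 all lay above 1000 CPM, and 6 of the 8 members with at least 5 CPM were highest in replicate 4, against 33.4% of all genes. Ciita, which switches on these genes, was at 19.8, 26.1, 51.5 and 49.6 CPM, so replicates 3 and 4 lay well above 1 and 2. The 15 genes of the MHC class I pathway summed to 8476 ± 237 CPM, a CV of 2.79%. Replicate 2 still held the lowest value of 12 of these 15 genes, against 27.2% of all genes (13 with TMM scaling, against 35.7%). Cd14, the coreceptor for bacterial lipopolysaccharide, held the most counts among the pattern and Fc receptors, at 3357, 2103, 2130 and 2332 CPM.

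Both inflammatory and IL-4-associated genes were expressed in the same libraries. Il1b (interleukin-1 beta) was at 2939, 1616, 1834 and 1647 CPM. Ptgs2, the inducible cyclooxygenase, was at 1849, 1378, 1364 and 1139 CPM. Tnf was at 98.7 ± 35.7 CPM, and Il12b and Il12a, subunits of IL-12, stayed at 0.993 ± 0.491 and 0.116 ± 0.0608 CPM. Among the 16 genes that IL-4 induces, Mrc1 and Arg1, the arginine-degrading enzyme arginase 1, held the most counts, and Arg1 was at 1091, 700.4, 786 and 843 CPM. Retnla was at 66.9, 121, 96.5 and 138 CPM. Nos2, the inducible nitric oxide synthase that uses the same substrate as Arg1, was at 118, 26.5, 59.5 and 73.1 CPM. Replicate 1 was the highest and replicate 2 the lowest for both, 1.56-fold apart for Arg1 and 4.44-fold for Nos2.

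Of the chemokine genes, Ccl6, Ccl9 and Cxcl2 held at least 1000 CPM on average. Ccl6 was at 1868, 1668, 2252 and 2085 CPM. Ccl2, which attracts monocytes through the receptor Ccr2, was at 382 ± 82.4 CPM, and Ccr2 itself was at 451, 640.1, 779.5 and 662 CPM. F13a1, a clotting factor subunit of monocyte-derived macrophages, was at 2432 ± 281 CPM, and Ly6c2, the surface marker of inflammatory monocytes, was at 41.0 ± 4.34 CPM. Among growth factors, Vegfa, which drives blood vessel growth, led with 833, 768, 691 and 645 CPM. Igf1 was at 213 ± 35.3 CPM and Tgfb1 at 187 ± 20.9 CPM.

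Glycolysis genes were counted in every library. All 17 glycolysis genes reached at least 1 CPM in all 4, and 15 of them had a mean of at least 100 CPM. Pkm, the pyruvate kinase, was at 1223, 835, 995 and 1071 CPM. Replicate 2 held the lowest value of 15 of the 17 genes, against 27.2% of all genes, and replicate 1 the highest of 10, against 13.5%. The sums were 5781, 4274, 5253 and 5339 CPM. With TMM scaling, replicate 1 was the highest for 14 genes (25.8% of all genes) and replicate 2 the lowest for 15 (35.7% of all genes). Eno1, the enolase gene of this list, was at only 14.6 ± 2.72 CPM, while Gm5506, a copy of it elsewhere in the genome, was at 950.3, 658, 838 and 903 CPM. Of all stretches of 100 bases, the length of a read, in the Eno1 transcript, 58.6% also occur letter for letter in the transcript of Gm5506, so the level of Eno1 itself is uncertain.

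The summed level of the macrophage transcription factors differed little between the libraries, at 5373, 5328, 5555 and 5445 CPM for the 20 genes of that list, a CV of 1.83%. Single genes varied more, with a median CV of 10.5% against 11.7% over all genes with at least 5 CPM, and 2 of the 20 had high relative spread, as defined below, against 10.2% of all genes. Zeb2, a factor that maintains macrophage identity, was at 818 ± 60.5 CPM. Maf, a factor of resident macrophages, differed most within the list, at 233, 328, 424 and 384 CPM. Proliferation genes were present at low to moderate levels. The marker of cycling cells Mki67 was at 98.8 ± 10.2 CPM and the replication clamp gene Pcna at 95.9 ± 8.66 CPM.

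Markers of some other cell types were at or near 0, and those of others were not. The T cell receptor genes Cd3d, Cd3e and Cd3g had at most 0.146 CPM in any library, the B cell gene Ms4a1 at most 0.292 CPM, and the eosinophil peroxidase gene Epx at most 0.0598 CPM. Il7r, also on the T and NK cell list, was at 138, 123, 74.5 and 81.3 CPM and held most of the mean sum of that list, 137 CPM. The lists of B and plasma cell and of eosinophil markers summed to 6.13 ± 1.29 and 18.3 ± 2.99 CPM. Of 13 keratinocyte markers in the table, only Sfn reached 1 CPM in all 4 libraries, and their sum was highest in replicate 2, at 9.75 CPM. The red cell genes summed to between 5.81 and 15.4 CPM. Among dendritic cell markers, the cross-presenting cell genes Xcr1 and Clec9a had at most 4.83 and 1.28 CPM, while Itgax (CD11c), which macrophages also carry, was at 94.6 ± 7.72 CPM. Of the 12 markers on this list, 7 had a mean of at least 5 CPM, and the list summed to 234, 297, 282 and 253 CPM. Values of its members Cd209a and Ccr7 are given below. Among genes of neutrophil granules, Mpo, Ngp, Camp and Elane were at 0.302 CPM or less, while Mmp8, the neutrophil collagenase, was at 40.3, 25.4, 25.5 and 21.1 CPM. S100a8 and S100a9 were also well counted, as described below. All 16 fibroblast markers reached at least 1 CPM in all 4 libraries and summed to between 10791 and 20750 CPM, 1.08% to 2.08% of the counts. In RNA of bulk samples, more cells of a type and more RNA per cell cannot be told apart, and whether these transcripts came from other cells was not tested.

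The spread among the libraries was well above counting error for most genes. Over the 12006 genes with a mean of at least 1 CPM, the median CV was 13.3%. It was 15.4% for genes from 5 to 20 CPM, 10.5% from 20 to 100 CPM, 9.62% from 100 to 1000 CPM and 10.1% at or above 1000 CPM. Counting alone would give a median CV of 5.08% in the first of these classes and 0.398% in the last, so above about 20 CPM deeper sequencing would change the CV little. Over the 9708 genes with a mean of at least 5 CPM, the common biological coefficient of variation of edgeR, the spread beyond counting error, was 0.157. In the same genes, the highest and the lowest library differed by at least 2-fold for 461 genes (4.75%). At or above 1000 CPM, 19 genes differed by at least 1.5-fold and 4 by at least 2-fold.

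**Figure D3:**
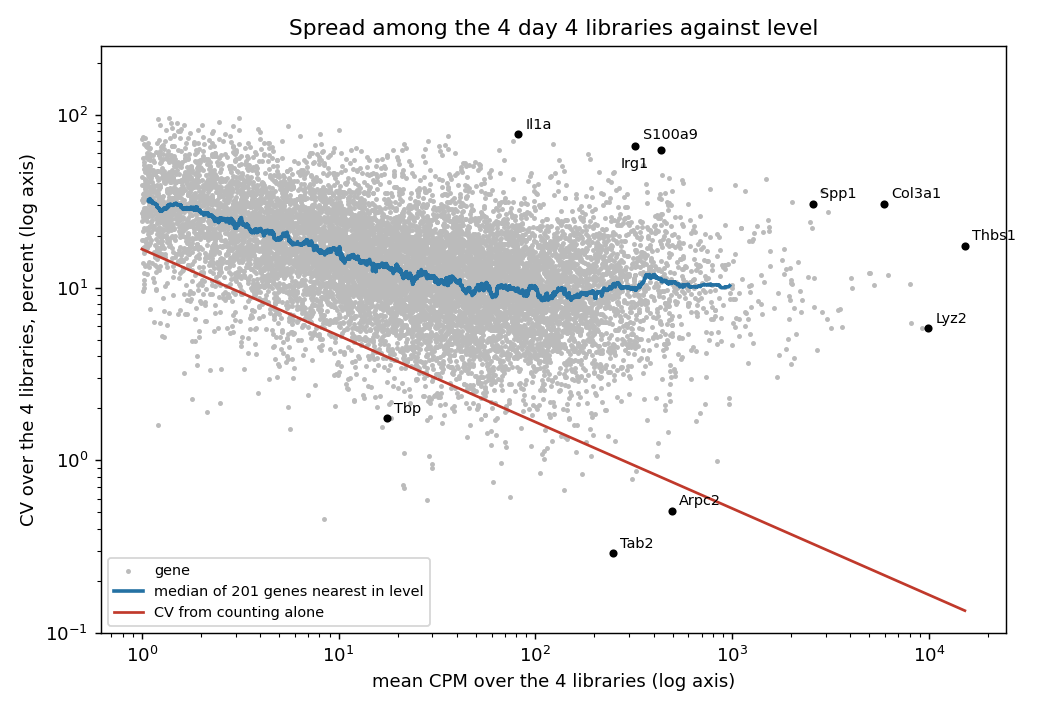
CV over the 4 libraries (vertical log axis, percent) against mean CPM (horizontal log axis) of the 12006 genes with a mean of at least 1 CPM. The blue line, a running median over the genes nearest in level, flattens near 10% above 100 CPM, while the red line, the CV that counting alone gives, goes on falling.

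The 4 libraries were not equally far from each other. Replicates 3 and 4 were the closest pair, with a median difference of 0.10 on the log2 scale, a Pearson correlation of 0.995 across genes and 10 genes at least 2-fold apart. The furthest pair was replicates 2 and 4, with a median difference of 0.24 on the log2 scale, a correlation of 0.977 and 222 genes at least 2-fold apart. Genes are not independent replicates, and these correlations are descriptions. The common biological coefficient of variation was 0.0831 for replicates 3 and 4 alone and 0.190 for replicates 2 and 4 alone. Replicates 3 and 4 are also the 2 deepest libraries. After all libraries were thinned to the smallest total, their median difference was 0.11 on the log2 scale and still the smallest of the 6 pairs. Even this closest pair lay further apart than sampling alone would give (a chi-square of 28.2 for each degree of freedom), so no library was treated as a copy of another. In CPM, the median gene of replicate 1 lay 0.11 lower on the log2 scale than in the mean of the other 3 libraries. This shift is part of each comparison of replicate 1 in CPM below.

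Some genes hardly varied at all. Relative spread is the CV of a gene divided by the median CV of the genes nearest to it in level. By this measure, the steadiest of the named genes with at least 100 CPM was Tab2, an adaptor of the kinase TAK1, at 248, 249, 247 and 247 CPM, a CV of 0.291%. Arpc2, a subunit of the complex that branches actin filaments, was at 493, 494, 498 and 497 CPM, a CV of 0.513%. Pdcd6ip, Clint1, Dennd5a, Ahcyl2, Slc6a6, Arf1, Gnb1 and Aim1, the others of the 10 steadiest, had CVs from 0.676% to 1.26%. Several of these act in membrane traffic, among them Arf1, Clint1 and Dennd5a. Tab2 lay below the CV that counting alone gives at its level, as did 219 of the 9708 genes with at least 5 CPM, so with 4 libraries part of this order is chance of sampling.

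Genes that are often used as references were not all steady. Tbp, the TATA-binding protein, was at 17.7, 17.5, 18.1 and 17.3 CPM, a CV of 1.75%. Ppia, Gusb and Sdha had CVs of 4.93%, 5.02% and 5.04%. Actb, the beta actin gene, was at 1707, 1536, 1885 and 2256 CPM, a CV of 16.7%, with replicate 4 the highest and replicate 2 the lowest. Gapdh was at 469.9, 344, 404 and 436 CPM, with replicate 2 again the lowest, and Pgk1, also an enzyme of glycolysis, had a CV of 18.0%, the highest of the 16 genes. Hprt was at 114, 163, 166 and 145 CPM, with replicate 1 the lowest. The median CV of the 16 genes was 8.75%, against 11.7% over the 9708 genes.

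At the other end, 992 of the 9708 genes (10.2%) had a relative spread of at least 2, which is called high relative spread here. By the gap of the outermost library to its neighbour over the whole range (a ratio above the 95% critical value of Dixon for 4 values), 1 library stood apart for 533 genes (5.49%). Replicate 1 stood apart and high for 85 genes (0.876%) and low for 94 (0.968%), and replicate 2 for 208 (2.14%) and 49 (0.505%). Replicate 3 stood apart and high for 25 (0.258%) and low for 9 (0.0927%), and replicate 4 for 47 (0.484%) and 16 (0.165%). With 4 values, chance alone marks about 1 gene in 20 by this ratio, so 5.49% is near that background and nothing is read from it. Because the ratio ignores the size of the gap, a second measure was used. For 234 genes (2.41%) replicate 2 lay at least 1.5-fold above each of the other 3 libraries, and for 18 (0.185%) at least 1.5-fold below each. Replicate 1 lay above in this way for 90 genes (0.927%) and below for 98 (1.01%). With TMM scaling, which takes out the shift of replicate 1, it lay above for 130 genes and below for 47. Replicate 4 lay above for 28 (0.288%) and replicate 3 for 3 (0.0309%), and they lay below for 7 (0.0721%) and 5 (0.0515%). Replicates 1 and 2 thus accounted for most of the genes in which 1 library stood away from the rest. Replicates 3 and 4 were the closest pair, and a library close to another can seldom lie 1.5-fold from each of the others. The low counts of replicates 3 and 4 follow in part from this.

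**Figure D4:**
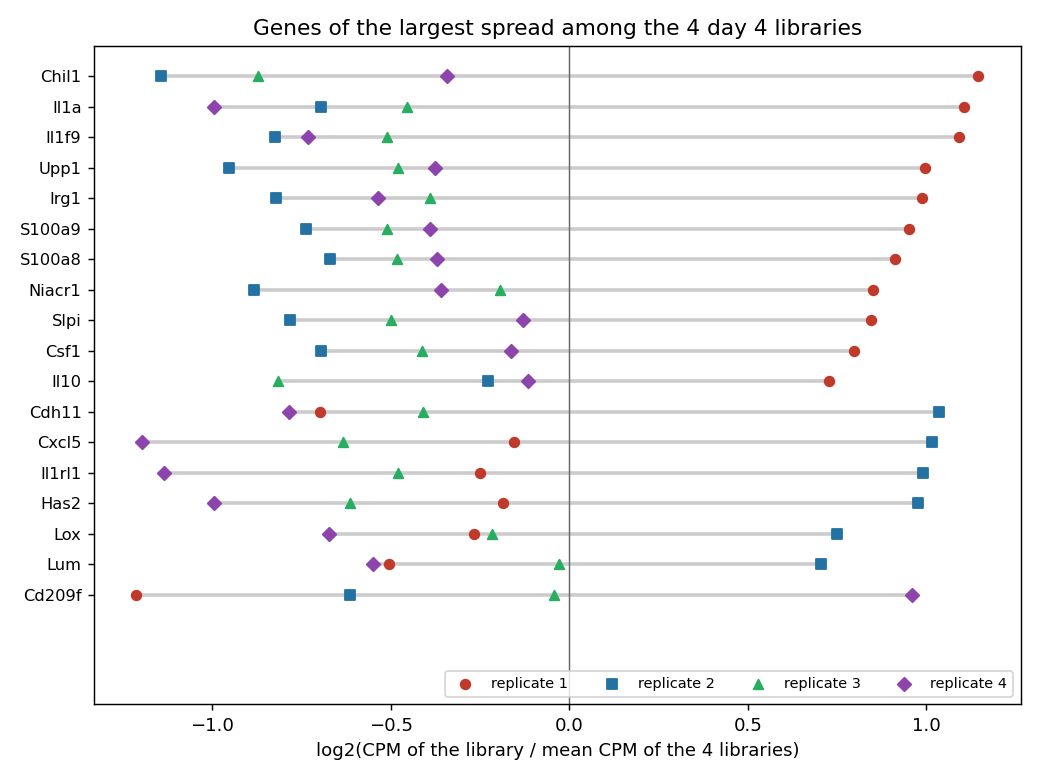
The 18 named genes of the largest spread, as log2 of the CPM of each library over the mean CPM of the 4 (horizontal axis), with 1 symbol per library. Replicate 1 is the highest for 11 of them, replicate 2 for 6, replicate 4 for Cd209f and replicate 3 for none.

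Inflammatory genes were among those that stood high in replicate 1. Of the 90 genes at least 1.5-fold above each other library there, 7 are on the list of inflammatory cytokines and enzymes, 7 of its 12 members with at least 5 CPM, against 0.927% of all genes. Replicate 1 held the highest value of 9 of the 12, against 13.5% of all genes (10 with TMM scaling, against 25.8%), and 10 of the 12 had high relative spread, against 10.2%. The list summed to 7832, 4721, 4815 and 4508 CPM. Il1a, the gene of interleukin-1 alpha, was at 176, 50.4, 59.6 and 41.0 CPM. Irg1 (now Acod1), the enzyme that makes the antimicrobial metabolite itaconate, was at 638, 182, 246 and 222 CPM. Il1rn, the natural antagonist of interleukin-1, was at 1633, 889.7, 767 and 839 CPM. In all of these replicate 1 stood alone, and replicates 2, 3 and 4 lay much closer to each other than to it. Nlrp3, the sensor of the inflammasome that releases interleukin-1 beta, was at 783, 376, 383 and 359.9 CPM. Il10, an anti-inflammatory cytokine gene, was also highest in replicate 1, at 207, 107, 71.2 and 116 CPM, with replicate 3 the lowest.

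Genes of other groups were also highest in replicate 1. Counted at a mean of at least 5 CPM, these were 11 of 18 hypoxia-induced genes and 11 of 21 genes of matrix proteins and their proteases. They were also 9 of 16 genes of the NRF2 and antioxidant list and 7 of 11 genes of S100 and acute phase proteins. With TMM scaling these counts were 14, 12, 10 and 10, against 25.8% of all genes. Of the 11 CXC chemokine genes with at least 5 CPM, 3 were highest there and 4 in replicate 2, and of the 22 pattern and Fc receptor genes with adaptors, 10 were highest in replicate 1 and 8 in replicate 3. Over all genes, replicates 1, 2 and 3 were the highest for 13.5%, 31.9% and 21.2%. Cxcl2 was at 2441, 1220, 1175 and 1123 CPM and Cxcl3 at 625, 258, 259 and 274 CPM. Both attract neutrophils through the receptor Cxcr2. Clec4e and Trem1, receptors that amplify myeloid activation, were at 1200, 695, 564 and 649.7 CPM and at 389.8, 194, 206 and 181 CPM. Spp1, the secreted phosphoprotein osteopontin, was at 3750, 2218, 2314 and 2041 CPM. Csf1, the gene of M-CSF, was at 238, 84.7, 103 and 122 CPM. Slpi, a secreted protease inhibitor, Niacr1 (now Hcar2), a receptor for hydroxybutyrate and niacin, and Il1f9 (now Il36g) had CVs of 54.8%, 55.4% and 75.6%, each with the highest value in replicate 1. Cxcl1, a further neutrophil chemokine, followed another order, at 632, 558, 337 and 360.2 CPM, high in replicates 1 and 2.

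Markers of neutrophils moved with these genes. S100a9 and S100a8, the 2 chains of calprotectin, which are very abundant in neutrophils and also made by monocytes, were at 847, 263, 308 and 334 CPM and at 350.4, 117, 133 and 144 CPM. Cxcr2 was at 85.0, 42.8, 42.6 and 42.6 CPM. Of the 13 neutrophil markers in the table, 7 had at least 5 CPM, and 6 of these were highest in replicate 1, against 13.5% of all genes. The whole list summed to 1607, 639.9, 755 and 783 CPM, 2.21 times as much in replicate 1 as on average in the other 3. S100a9 and S100a8 held 847 and 350.4 of the 1607 CPM in replicate 1, so this ratio rests mostly on these 2 genes. The granule genes Mpo, Ngp, Camp and Elane were at 0.302 CPM or less in replicate 1 too, while Mmp8 was highest there and Ltf, lactoferrin, was at 3.74, 1.42, 1.14 and 2.14 CPM. Hdc, the histidine decarboxylase of mast cells, basophils and activated myeloid cells, was at 424, 163, 205 and 213 CPM, while the mast cell protease genes Cma1, Mcpt4 and Tpsb2 stayed at 1.61 CPM or less. The part of neutrophils in the inflammatory values of replicate 1 was not tested.

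The promoters of several of these genes are shown because the genes stood together in 1 library. Each sequence is the 150 bases just before the start site in RefSeq's annotation of GRCm38.p6, with any TATAAA (the TATA box) and, in Cxcl2 and Cxcl3 only, any match to the NF-kappaB consensus in capitals. Both strands were searched.
Cxcl2, chr5:90903749-90903898, plus strand: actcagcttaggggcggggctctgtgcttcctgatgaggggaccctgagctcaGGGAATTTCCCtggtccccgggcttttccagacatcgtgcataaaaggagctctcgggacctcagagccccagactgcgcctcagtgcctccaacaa
Cxcl3, chr5:90785951-90786100, plus strand: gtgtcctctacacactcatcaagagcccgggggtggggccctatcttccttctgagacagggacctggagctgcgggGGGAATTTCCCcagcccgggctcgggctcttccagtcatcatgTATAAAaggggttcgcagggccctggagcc
Il1a, chr2:129309973-129310122, minus strand: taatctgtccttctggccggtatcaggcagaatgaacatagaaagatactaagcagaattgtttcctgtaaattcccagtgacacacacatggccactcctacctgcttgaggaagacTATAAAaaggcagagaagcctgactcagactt
Il1b, chr2:129371140-129371289, minus strand: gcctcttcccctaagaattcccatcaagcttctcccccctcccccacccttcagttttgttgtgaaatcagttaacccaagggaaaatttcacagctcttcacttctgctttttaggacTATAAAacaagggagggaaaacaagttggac
Irg1, chr14:103046862-103047011, plus strand: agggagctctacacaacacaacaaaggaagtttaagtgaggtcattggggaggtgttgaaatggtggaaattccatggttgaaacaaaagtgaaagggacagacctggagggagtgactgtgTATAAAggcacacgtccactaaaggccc
S100a8, chr3:90668921-90669070, plus strand: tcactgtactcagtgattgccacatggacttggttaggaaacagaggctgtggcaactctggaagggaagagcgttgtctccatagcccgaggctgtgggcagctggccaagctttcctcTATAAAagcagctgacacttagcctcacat
Cxcl2 and Cxcl3 carry the same 11 letters GGGAATTTCCC, which hold 2 overlapping matches, starting 97 and 73 bases before the start site. Compared position by position without alignment, the 2 promoters have the same base at 42 of the 150 positions. Because the shared letters lie at different distances from the start, this count does not measure how alike the 2 promoters are. The TATA box lies 28 to 32 bases before the start in Cxcl3, Il1a, Il1b, Irg1 and S100a8. The promoters shown were chosen by hand, and a TATA box is more frequent among them than in the whole set. Over the 250 bases before the start, TATAAA was found in 19 of the 72 promoters available for the 90 genes that stood at least 1.5-fold above in replicate 1 (26.4%). It was found in 6.28% of the 7825 promoters available for the 9708 genes with at least 5 CPM, and in 12.4% of all 32851 windows. For the NF-kappaB consensus these shares were 11.1%, 9.04% and 7.25%, and for TGANTCA, the AP-1 site, 16.7%, 4.37% and 6.75%. In the genes that stood above in replicate 2, the TATA box was found in 13.7% and the AP-1 site in 6.21% of 161 promoters. In those that stood above in replicate 4 these shares were 26.1% and 8.70% of 23 promoters, so a TATA box share of this size was found in that set too. These are counts of letters and not of sites in use.

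All 16 fibroblast markers had their highest value in replicate 2, against 31.9% of all genes. Of the 234 genes at least 1.5-fold above each other library there, 8 are on this list (2.41% of all genes stood so), and 15 of the 16 markers had high relative spread, against 10.2%. The list summed to 11628, 20750, 14089 and 10791 CPM, 1.71 times as much in replicate 2 as on average in the other 3. Col3a1, the gene of type III collagen, was at 4899, 8486, 5895 and 4425 CPM. Col1a1 and Col1a2, the 2 chains of type I collagen, were at 2481, 4286, 3023 and 2505 CPM and at 2361, 4368, 2762 and 2030 CPM. In all 3 collagen genes replicate 2 was the highest and replicate 3 the next.

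Other genes of mesenchymal cells followed. Postn, the matrix protein periostin, was at 426, 881, 549 and 360.0 CPM, and Lum, the small proteoglycan lumican, at 85.1, 197, 118 and 82.4 CPM. Pdgfra, a growth factor receptor that marks fibroblasts, was at 28.1, 72.8, 41.3 and 36.8 CPM. Lox, which crosslinks collagen, Has2, which makes hyaluronan, and Cdh11, a cadherin of fibroblasts, had CVs of 46.6%, 66.2% and 70.4%, each highest in replicate 2. Some genes of signalling stood with them. Il1rl1, the receptor for interleukin-33, was at 103, 244, 87.9 and 55.9 CPM and had the highest relative spread of all named genes with at least 100 CPM. Cxcl5, a neutrophil chemokine, was at 69.6, 157, 49.96 and 33.8 CPM, and Cxcl12, a chemokine of stromal cells, at 31.8, 84.1, 33.4 and 43.6 CPM. Il33 itself was at 42.5, 70.4, 31.0 and 25.9 CPM. Among dendritic cell markers, Ccr7, a receptor that guides cells to lymph nodes, was at 36.6, 67.8, 38.6 and 37.2 CPM. Macrophage and sort markers were lowest in replicate 2 for 8 of 13 genes, against 27.2% of all genes (10 with TMM scaling, against 35.7%). The part of fibroblast RNA in the values of replicate 2 was not tested.

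Replicates 3 and 4 shared a further set. Both lay at least 1.5-fold above both of the others for 110 genes (1.13%) and below for 12 (0.124%). Cd163, the receptor that takes up haemoglobin, was at 467, 411, 743 and 758 CPM. Cbr2, a carbonyl reductase of tissue macrophages, was at 364, 319, 572 and 611 CPM. Immediate early genes, which cells switch on within minutes of a stimulus, were highest in replicate 3 for 9 of 22, against 21.2% of all genes, and in replicate 4 for 7, near the 33.4% of all genes. With TMM scaling these were 8, against 19.7%, and 6, against 27.8%. Fos was at 1077, 1357, 1901 and 1755 CPM and Jun at 305, 382, 546 and 533 CPM. Among them, Fosl2 was nearly level, at 1270, 1168, 1188 and 1208 CPM.

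Of the 12 heat shock protein genes with at least 5 CPM, Hspa1a and Hspa1b, which encode the inducible HSP70 chaperone, were the 2 of high relative spread. Hspa1a was at 285, 468, 747 and 751 CPM and Hspa1b at 257, 403, 612 and 563 CPM, so replicate 1 was the lowest, replicate 2 next, and replicates 3 and 4 the highest for both. Hspa8, the constitutive relative, was at 1814, 1900, 2047 and 1915 CPM. Their promoters are shown because the 2 genes followed the same order, with the core of the heat shock element, GAANNTTC, in capitals.
Hspa1a, chr17:34972157-34972306, minus strand: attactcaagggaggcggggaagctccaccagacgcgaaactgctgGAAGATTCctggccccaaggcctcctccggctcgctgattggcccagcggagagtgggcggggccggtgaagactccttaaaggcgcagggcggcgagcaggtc
Hspa1b, chr17:34959239-34959388, minus strand: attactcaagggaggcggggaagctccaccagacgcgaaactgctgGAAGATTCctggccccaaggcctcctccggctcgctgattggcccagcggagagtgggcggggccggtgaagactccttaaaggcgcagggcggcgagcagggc
The 2 promoters have the same base at 149 of the 150 positions, and the match lies 104 bases before the start in both. GAANNTTC was found in 4.69% of the promoters available for genes with at least 5 CPM. The transcripts are near copies too. Of all stretches of 100 bases, 47.1% of those of Hspa1a also occur in Hspa1b, so the division of reads between the 2 genes is uncertain while their sum is less so.

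Genes of other groups stood high in 1 of these libraries. Of the 20 interferon-stimulated genes, 15 had their highest value in replicate 3, against 21.2% of all genes (14 with TMM and 13 with upper quartile scaling, against 19.7% and 19.5%). Among them were Ifit2, at 80.7, 102, 134 and 94.8 CPM, and Mx1, at 27.3, 39.4, 57.4 and 44.4 CPM. Isg15, also on that list, was level at 52.2 ± 3.27 CPM. In replicate 4, 4 members of the Cd209 family of C-type lectins stood at least 1.5-fold above each other library, against 0.288% of all genes. This family is not one of the gene lists used here and was singled out after its values were seen, so the 4 cannot be read against that share. Cd209f was at 15.0, 22.6, 33.7 and 67.3 CPM and Cd209d at 9.48, 14.1, 21.3 and 39.4 CPM. Cd209a, a family member that marks dendritic cells, was at 40.0, 51.3, 59.2 and 55.6 CPM and not so spread. Fcna, the plasma lectin ficolin A, which some tissue macrophages make, was at 77.3, 52.6, 93.9 and 155 CPM. Lyve1, a hyaluronan receptor of perivascular macrophages and lymphatic vessels, was at 108, 71.3, 145 and 194 CPM. Skeletal muscle markers were also highest in replicate 4, at 8.54, 7.67, 13.1 and 30.6 CPM in all, led by the muscle actin gene Acta1 with 13.3 CPM there. Of the 72 respiratory chain genes with at least 5 CPM, 50 had their highest value in replicate 4, against 33.4% of all genes (42 with TMM and 34 with upper quartile scaling, against 27.8% and 24.3%). The sums were 4113, 4176, 4269 and 4640 CPM.

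**Figure D5:**
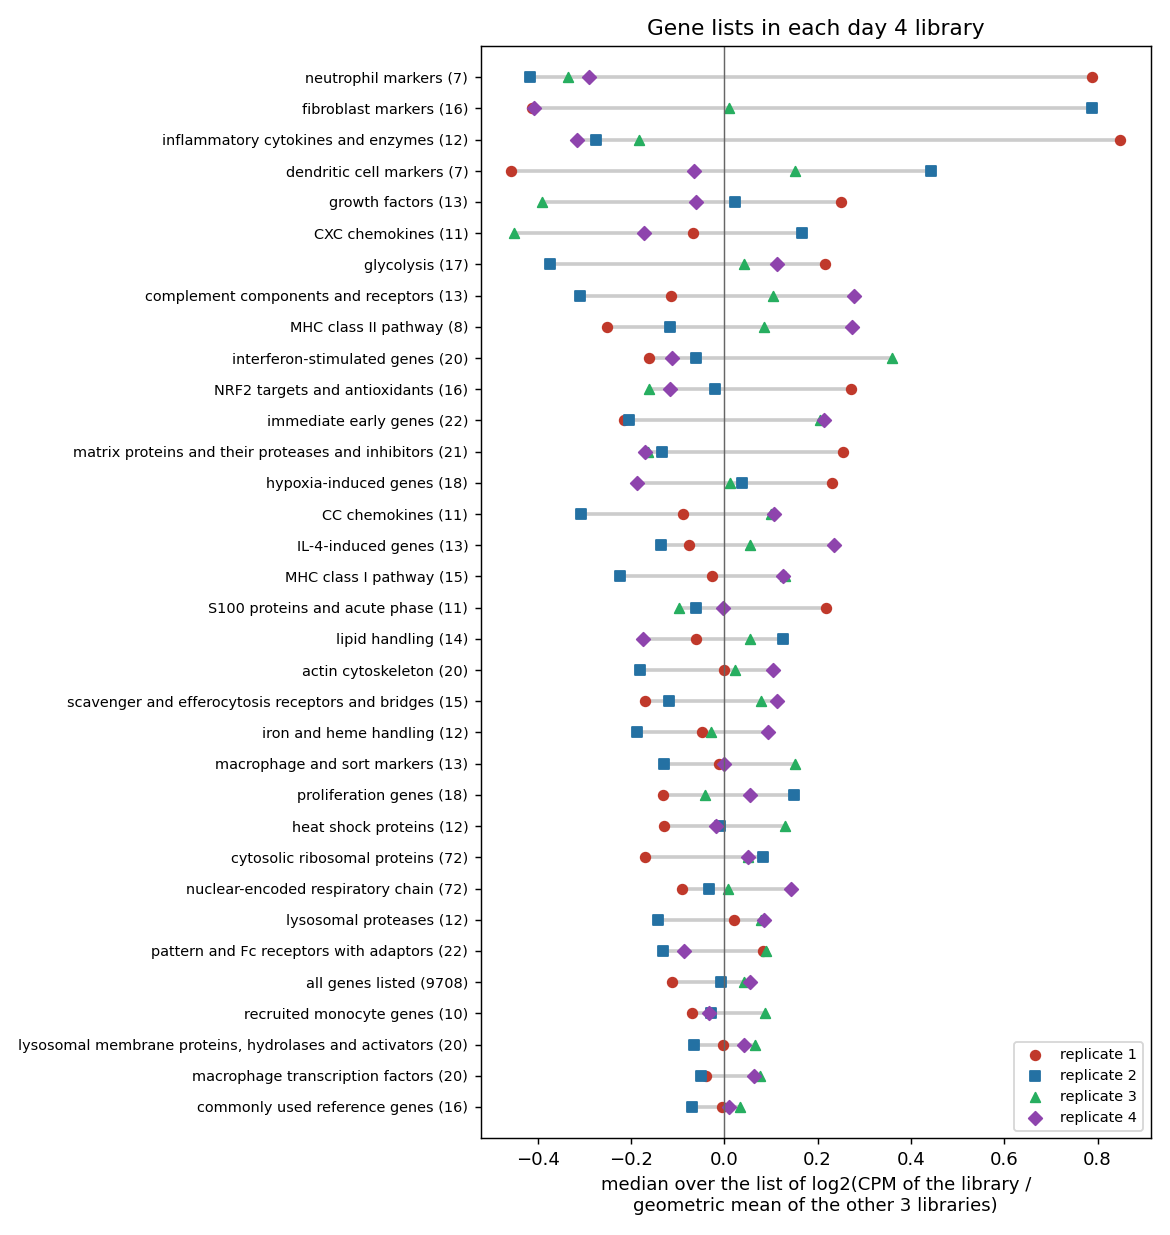
Median over each gene list of the log2 ratio of a library's CPM to the geometric mean of the other 3 libraries (horizontal axis), for the 33 lists with at least 7 genes of at least 5 CPM and for all 9708 such genes, with 1 symbol per library and the number of genes in brackets. Neutrophil markers and inflammatory genes are highest in replicate 1 and fibroblast markers in replicate 2, while reference genes and macrophage transcription factors lie near 0 in all 4.

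Among lists with at least 7 genes of at least 5 CPM, the highest median CV, 33.7%, belonged to the inflammatory cytokines and enzymes, followed by fibroblast markers at 32.0%, neutrophil markers at 31.6% and CXC chemokines at 30.9%. The lowest belonged to lysosomal proteases at 7.46% and macrophage and sort markers at 7.61%, against 11.7% over all 9708 genes. On the log2 scale, the median inflammatory gene stood 0.85 higher in replicate 1 than in the mean of the other libraries, and the median fibroblast marker 0.79 higher in replicate 2. Ribosomal protein genes were lowest in replicate 1 for 53 of 72, against 41.7% of all genes. With TMM scaling they were lowest there for 35, against 24.0%, and with relative log expression scaling for 28, against 21.1%. Members of this family have many near-identical processed copies in the genome, and their levels are uncertain. The same holds for Oaz1-ps, a copy of the antizyme gene Oaz1, at 15.5, 23.5, 51.3 and 65.9 CPM, of which 79.7% of the stretches of 100 bases also occur in Oaz1. Oaz1 itself was at 148, 145, 122 and 118 CPM, in the opposite order.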

How the data were processed

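Gene expression was measured by RNA sequencing of sorted wound macrophages, and only the 4 libraries labelled 4 days after injury were used, of 9 in the series. The authors deposited estimated counts per gene symbol, not normalized, and 16.0% to 19.3% of the values in a library are not whole numbers. Per the submitters' processing notes, the tools were CASAVA 1.8, HISAT2 2.1.0, SAMtools 1.4, Partek 6.6 and DESeq2, with the mouse build mm10; the notes give no role or order for them. Per the labels' protocols, libraries were made with a TruSeq RNA v2 kit, which does not mark strand, and sequenced as pairs of reads of 100 bases. Reads of overlapping genes on opposite strands, and of near-identical copies, therefore cannot always be told apart.

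Estimated counts were rounded to whole numbers and scaled by the library total to CPM. Depth was 26479011 to 57809914 counts per library. The CV is the SD over the 4 libraries as a percentage of the mean, and the counting CV assumes Poisson counts. The common biological coefficient of variation came from edgeR 4.0.16 (R 4.3.3) without any contrast. TMM, relative log expression and upper quartile scaling, other minimum levels, unrounded counts, thinning to the smallest total and leaving out each library were tried as alternatives. Tables were made with Python 3.11.15, pandas 2.3.3 and numpy 2.4.6, and the scripts were tested on simulated data. Exon lengths and positions came from GENCODE M21 (GRCm38), matched for 17250 genes by symbol and 809 by older name; 244 were not matched. Promoters came from RefSeq's GRCm38.p6 annotation. No groups were compared and no p-value was computed. An exact share of stretches common to 2 transcripts was taken over all windows of 100 bases.

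The genes and lists were chosen with earlier results of these data known. Genes were named by a rule: the 25 highest by CPM, the 10 highest per kb, the 10 highest and 10 lowest in relative spread at 100 CPM or more, the 10 highest in CV at 10 CPM or more, the most abundant, most and least variable members of each list, the sort markers, sex-linked transcripts and reference genes, leaving out predicted genes. Other genes named were chosen after their values were seen.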

Additional observations from a re-analysis of the deposited data

Results flagged for a closer look

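For 17 genes named in the text and 9 summed gene lists, the gap between the outermost library and its nearest neighbour exceeded the 95% critical value of Dixon as a share of the whole range of the 4 libraries. Chance alone marks about 1 in 20 groups of 4 in this way. The number of named genes examined was 134, and there were 45 lists. Among these lists, the sums of adipocyte markers and of mitochondrially encoded transcripts, 1.17 and 0 CPM on average, lay below 5 CPM and were not examined. Many of the genes were named for their spread or after their values were seen. The lists were chosen with earlier results known, and some share members. The numbers flagged therefore cannot be read against that rate.

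Replicate 1 stood above the others for 14 of the genes. Among cytokine genes it held 176 CPM of Il1a, 2939 CPM of Il1b, 1633 CPM of Il1rn and 76.4 CPM of Il1f9. It also held 2441 CPM of the chemokine Cxcl2, 625 CPM of Cxcl3 and 85.0 CPM of their receptor Cxcr2. Among sensors and enzymes of inflammation these were 638 CPM of Irg1, 783 CPM of Nlrp3 and 390 CPM of Trem1. The calprotectin genes S100a8 and S100a9 stood at 350 and 847 CPM there, and Spp1 at 3750 CPM.

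The list sums that stood high in replicate 1 were those of inflammatory cytokines and enzymes, at 7832 CPM, of neutrophil markers, at 1607 CPM, and of S100 and acute phase proteins, at 2875 CPM. Pattern and Fc receptors were at 11855 CPM there. The genes S100a8 and S100a9 are on both the neutrophil list and the S100 list, so these sums are not separate results. The sum of the mast cell and basophil list, 438 CPM, was almost all Hdc. The sum of the 3 Langerhans cell markers was 160 CPM there, of which Cd24a, a gene not specific to these cells, held 157 CPM and stood apart on its own. The other members, Cd207 and Epcam, were at 2.87 and 0.189 CPM in replicate 1 and were not highest there. Ribosomal protein genes summed to 6482 CPM in replicate 1, below the other libraries. With TMM scaling their sums were 6843, 7191, 7151 and 7229 CPM in replicates 1 to 4. Replicate 2 stood above the others for Ccr7, at 67.8 CPM, for Cdh11, at 58.8 CPM, and for the sums of keratinocyte and endothelial markers, at 9.75 and 54.1 CPM. The endothelial sums had a CV of only 3.86%. With TMM scaling they were 52.7 and 53.2 CPM in replicates 1 and 2, so this gap rests on the scaling. Slc6a6, at 828 CPM in replicate 4, stood below the other libraries although its CV was only 0.986%.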

How the results depend on the processing

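Of 109 alternative values of the main summary measures, 94 stayed close to those reported and 15 moved, by the minimum level or by leaving out a library. A count of genes was called close within 1.5-fold of the reported count. Any other measure was called close within an SD, taken over the libraries, their pairs or the values without 1 library. A count called close need not be made up of the same genes. The median CV was 11.65% at a mean of at least 5 CPM, 10.22% at 20 CPM and 15.69% for genes with a count in every library. The common biological coefficient of variation was 0.176 at 1 CPM, 0.1402 at 20 CPM and 0.1857 for genes with a count in every library. Genes with 1 library apart numbered 349 at 20 CPM and 864 with a count in every library, and with that last filter the furthest pair lay 0.3022 apart on the log2 scale. Leaving out each library in turn, the median CV ranged from 11.34% to 14.01%, the common biological coefficient of variation from 0.1401 to 0.1754, and the median distance of the closest pair from 0.1002 to 0.1762 on the log2 scale, the higher values without replicate 3 or 4. The gap ratio cannot be computed with 3 libraries by the same limit. Of the 992 genes of high relative spread, 904 remained with TMM scaling (91.1% of them and 85.9% of the 1052 called then), 856 with relative log expression (86.3%) and 866 with upper quartile scaling (87.3%). Without replicate 2, 660 remained (66.5% of them and 52.8% of the 1249 called then), and without replicate 1, 737 (74.3% of them and 57.2% of 1289). Without replicate 3 or 4, 873 or 835 remained. Of the 533 genes with 1 library apart, only 202 remained with TMM scaling (37.9%), so that set rests on the scaling. Of 230 CVs of named genes, 115 of 690 values under the 3 scalings and 164 of 920 without 1 library moved by more than 1.5-fold, 73 of the latter without replicate 1 and 48 without replicate 2. Leaving the fibroblast markers, or the 100 most abundant genes, out of the library totals was tried after seeing the data and gave 968 and 1032 genes of high relative spread. This rescales all other genes of a library alike and does not bear on where their RNA came from. Depth limits the low genes: from 1 to 5 CPM the counting CV alone had a median of 10.6%. No paired analysis was possible because 1 group was described.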
